A study of Homo sapiens with 3 samples.

Results

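The ADAM and ADAMTS proteases and their ADAMTS-like relatives were followed in RNA sequencing of 3 human hepatocellular carcinoma (HCC) cell lines, with 1 library per line. The members were all genes whose symbol begins with ADAM followed by a number, by TS or by DEC, and 31 of the 16149 genes listed in any library met this rule. They were 15 ADAM genes, 12 ADAMTS genes and 4 ADAMTS-like genes. A gene that a library did not list counted as 0 there. The parent listed 29 of the members, subclone 1 listed 25, subclone 2 listed 25, and 22 were listed in all 3 libraries. Of all 16149 genes, the parent listed 14703, subclone 1 listed 14900 and subclone 2 listed 14931. How many of all genes were listed in all 3 is not given here. As 10 of the members had at most 3 reads in every library, such members can be missing from a library by counting error. RefSeq holds 45 protein-coding genes that meet the rule, of which 29 were listed. The other 2 members, ADAM1 and ADAM21P1, are not protein-coding there.

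The parent is the human HCC line HCCLM3 according to the labels, and its derivative HCCLM3-R, which stably expresses red fluorescent protein, according to the study's methods. The labels give the parent a low metastasis ability, whereas the methods describe HCCLM3-R as highly metastatic. Subclone 1 carries the label of a higher metastasis ability directed to the lung, and subclone 2 that of metastasis to both the lung and the celiac lymph node. The methods describe the subclones as monoclonal lines, each grown from 1 cell of a lung or lymph node metastasis that HCCLM3-R formed in nude mice after implantation into the liver, so each subclone stands for 1 clone and the parent for a mixed population. Which of the monoclones were sequenced is not given in the sources used here. All 3 lines were cultured in DMEM, and no treatment is given.

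The level of each mRNA was measured in RPKM, the reads of a gene divided by its length and by the reads of the library, so that levels of different genes can be set side by side per length. The libraries held between 4488825 and 4725150 reads, as recovered from the steps between RPKM values. The 95% intervals given below are exact Poisson intervals for levels and exact Clopper-Pearson intervals for ratios, and they cover counting error only. With 1 library per line no difference between lines could be tested, and every ratio compares libraries. Among lineage markers, KRT8 and KRT18, keratins of hepatocytes, took most of the summed hepatocyte marker level of 2586 to 2890 RPKM, while ALB (albumin) had 2.46 RPKM in the parent, 49.5 RPKM in subclone 1 and 68.8 RPKM in subclone 2 and TTR (transthyretin) was listed only in subclone 2, at 0.451 RPKM.

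ADAM proteins are membrane-anchored metalloproteases that cut the outer parts of other membrane proteins, a step called shedding, which releases growth factors, cytokines and adhesion molecules from the cell surface. ADAMTS proteins are secreted relatives with thrombospondin repeats that cut proteoglycans and other components of the extracellular matrix, and ADAMTS-like proteins have the repeats without the protease. Both classes are made as inactive precursors, are activated by proprotein convertases such as furin, and are held in check by tissue inhibitors of metalloproteinases (TIMPs). In liver cancer and other carcinomas they have been studied for their part in growth factor release, invasion and remodelling of the matrix.

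Most of the family's mRNA came from a few shedding proteases, and these were at similar levels in the 3 lines. ADAM28 rose in both subclones, ADAM12 fell in subclone 2, and ADAMTS1, ADAMTSL2 and ADAM19, all near the limit of detection, were lower in both subclones than in the parent. Of the 31 members, 12 had a mean level of at least 1 RPKM over the 3 libraries and 19 lay under it. A gene was called changed where (RPKM + 0.1) differed at least 2-fold between libraries, a scale that understates the change of low genes. Both comparisons with the parent use the same parental library, so their values stand side by side and are not independent of each other.

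**Figure D1:**
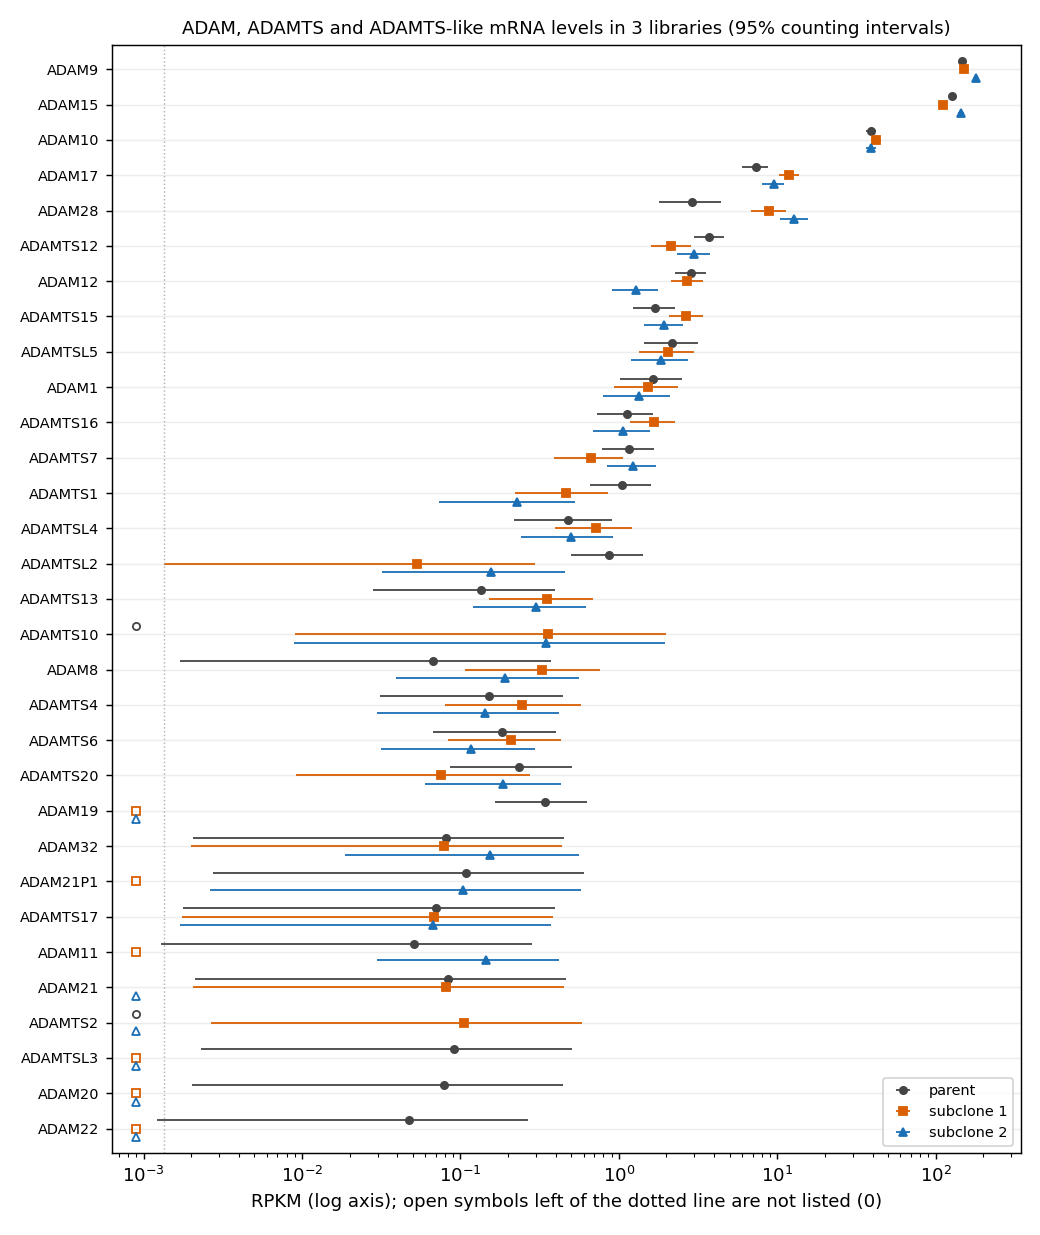
mRNA levels of the 31 members in RPKM on a log axis, with the genes ordered by mean level. Points are the parent (circles), subclone 1 (squares) and subclone 2 (triangles), bars are 95% Poisson intervals of counting error, and open symbols left of the dotted line are genes not listed in that library. ADAM9, ADAM15 and ADAM10 lie above 39 RPKM in every library, while 19 of the members have a mean under 1 RPKM.

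Among the membrane proteases with an active catalytic site, ADAM9, a widely expressed sheddase, had the highest level of the family. It reached 147 RPKM in the parent, 151 RPKM in subclone 1 and 180 RPKM in subclone 2, on 2706, 2855 and 3499 reads. These levels placed ADAM9 between percentiles 96.5 and 97.2 of the 11370 genes with a mean of at least 1 RPKM. The ratio to the parent was 1.03 in subclone 1 (0.974 to 1.08) and 1.23 in subclone 2 (1.17 to 1.29), so that subclone 2 stood apart beyond counting error but far from 2-fold.

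ADAM15, whose disintegrin domain binds integrins, followed with 127 RPKM in the parent, 111 RPKM in subclone 1 and 145 RPKM in subclone 2. It was lowest in subclone 1 and highest in subclone 2, with a ratio of 1.30 between these libraries (1.22 to 1.40). ADAM9 and ADAM15 together made up 80.1% (parent), 76.7% (subclone 1) and 81.1% (subclone 2) of the members' summed RPKM.

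ADAM10, the main sheddase of Notch receptors and of E-cadherin, measured 39.3 RPKM in the parent, 42.1 RPKM in subclone 1 and 39.2 RPKM in subclone 2. The intervals of its 3 ratios all included 1, and a difference was not detectable at this depth. With ADAM10 added, the leading genes accounted for 91.6%, 89.1% and 90.9% of the members' summed RPKM in the parent, subclone 1 and subclone 2.

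ADAM17, also called TACE, the protease that releases tumour necrosis factor and several ligands of the epidermal growth factor receptor, was at 7.30 RPKM in the parent, 11.9 RPKM in subclone 1 and 9.48 RPKM in subclone 2. In the RPKM as deposited, all 3 libraries differed beyond counting error, with subclone 1 the highest and the parent the lowest. Relative to the parent, the ratio was 1.63 in subclone 1 (1.29 to 2.07) and 1.30 in subclone 2 (1.02 to 1.66), neither of which met the 2-fold call. The ratio of subclone 2 to subclone 1 was 0.796 (0.642 to 0.986). Both intervals with subclone 2 ended near 1, so its place between the others depends on the scaling. The log2 ratio of subclone 2 to subclone 1 went from -0.33 to -0.20 under scaling by ACTB and to -0.21 under GAPDH. Intervals were not recomputed under these scalings.

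ADAM28, a protease of lymphocytes and of several carcinomas, rose in both subclones. The parent held 21 reads, or 2.91 RPKM (1.80 to 4.44). Subclone 1 held 66 reads, or 8.89 RPKM (6.88 to 11.3), and subclone 2 held 97 reads, or 12.7 RPKM (10.3 to 15.6). The intervals of the subclones did not overlap that of the parent. ADAM28 thus exceeded the parent 3.06-fold in subclone 1 (1.85 to 5.27) and 4.39-fold in subclone 2 (2.72 to 7.41), ratios that stood at percentiles 98.0 and 98.8 of the 11370 genes. By level, the gene stood at percentile 17.1 of the parent, compared with percentile 43.7 of subclone 1 and 53.9 of subclone 2. Between the subclones the ratio was 1.43 (1.04 to 1.99), with subclone 2 the higher. Of 4 leukocyte markers 3 were listed, with summed levels of 76.4, 113 and 101 RPKM in the parent, subclone 1 and subclone 2. Nearly all of this was CD68, a lysosomal protein, at 75.3, 112 and 99.6 RPKM. LYZ (lysozyme) had 1.03, 1.00 and 1.40 RPKM in the same order. PTPRC (CD45) had 0.0836 RPKM in the parent and was not listed in the subclones, and CD3E was listed in none. The part of such cells in the level of ADAM28 was not tested. In these bulk libraries more cells that express a gene and more of its RNA per cell cannot be told apart.

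ADAM12, a protease that binds syndecans and sheds growth factor precursors, fell in subclone 2. It had 2.85 RPKM in the parent (78 reads), 2.71 RPKM in subclone 1 (76 reads) and 1.29 RPKM in subclone 2 (37 reads). Between parent and subclone 1 no difference was detectable, with a ratio of 0.949 (0.683 to 1.32), and subclone 2 lay below both. Subclone 2 was 2.22-fold below the parent (1.48 to 3.38) and 2.10-fold below subclone 1 (1.40 to 3.21). The call against subclone 1 was lost when the libraries were scaled by ACTB or by GAPDH, and both calls were lost with a pseudocount of 1.

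ADAM19, a sheddase of neuregulins in the heart and other tissues, was read 10 times in the parent, at 0.342 RPKM (0.164 to 0.630), and was not listed in either subclone. Against the limit of 3 reads that a count of 0 allows in each subclone library, the parental value corresponds to a level at least 3.42-fold lower in subclone 1 and at least 3.51-fold lower in subclone 2, if no error is given to the 10 parental reads. When both libraries are given their counting error, the interval of the ratio of parent to subclone began at 2.30 for subclone 1 and at 2.36 for subclone 2. ADAM8, a protease of leukocytes and of some tumours, was measured with 1, 5 and 3 reads in the parent, subclone 1 and subclone 2, and the intervals of its ratios included 1. It was named after its values were seen, for its known role.

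The promoters of ADAM19 and ADAM12 are shown because these are the membrane proteases whose lower level in a subclone met a call. Each is the 250 bases before the start of the gene in RefSeq, on the GRCh38.p14 build, written 5′ to 3′ on the strand of the gene. Capitals mark GC boxes (GGGCGG or, on the other strand, CCGCCC), the motif of Sp1-type factors. TATA boxes (TATAAA or TTTATA), AP-1 sites (TGANTCA) and NF-kB sites were searched as well and would have been marked the same way. The ADAM19 window is chr5:157575776-157576025 on the minus strand, and that of ADAM12 is chr10:126388478-126388727 on the minus strand.
ADAM19: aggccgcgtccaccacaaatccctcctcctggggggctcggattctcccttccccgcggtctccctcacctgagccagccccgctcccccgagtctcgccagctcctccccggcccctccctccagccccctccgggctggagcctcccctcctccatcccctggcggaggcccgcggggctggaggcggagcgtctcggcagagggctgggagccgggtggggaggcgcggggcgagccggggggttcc
ADAM12: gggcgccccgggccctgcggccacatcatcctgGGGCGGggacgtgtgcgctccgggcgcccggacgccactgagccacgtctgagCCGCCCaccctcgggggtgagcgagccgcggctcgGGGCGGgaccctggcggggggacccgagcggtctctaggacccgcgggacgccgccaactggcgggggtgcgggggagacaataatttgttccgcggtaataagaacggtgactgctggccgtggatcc

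The ADAM12 window holds 3 GC boxes and the ADAM19 window none, and neither holds any of the other marked motifs. Each holds 1 E box (CANNTG), which was not marked and which 57.8% of the windows of all coding genes hold. G and C make up 73.6% of the ADAM12 window and 76.4% of the ADAM19 window, and the ratio of observed to expected CpG is 0.93 and 0.59. For comparison, the same windows of 15842 protein-coding genes hold a GC box in 56% of cases, a TATA box in 9.23%, an AP-1 site in 5.04% and an NF-kB site in 1.36%, and have a median CpG ratio of 0.74. RefSeq promoters were matched for 21 of the 31 members. Of the coding family members with a matched window, a GC box was present in 7 of 7 with a mean of at least 1 RPKM, in 10 of 14 listed members under it and in 5 of 8 that were not listed. Among all coding genes with a mean of at least 1 RPKM the share was 68.3%. ADAMTSL2 and ADAMTS10 had a TATA box, and ADAMTS12 had an AP-1 site. In the GENCODE annotation, 14 of the 21 windows had bases in an exon of the gene itself. They included 5 of the 7 windows of members with a mean of at least 1 RPKM. Of the 21 windows, 5 lay wholly within exons (ADAM15, ADAM10, ADAMTSL5, ADAMTSL2 and ADAMTS13), so that transcription can start further upstream there. Those of ADAM19 and ADAM12 had no such base. These matches describe letters in a window and are not evidence of binding.

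ADAMs that lack a catalytic site or are known from the germline were scarcely read. The adhesion proteins of neurons ADAM11 and ADAM22 summed to 0.0983 RPKM in the parent and 0.144 RPKM in subclone 2, and were not listed in subclone 1. ADAM1, a pseudogene in humans of a sperm surface protein, was the highest of the germline members, at 1.65 RPKM in the parent, 1.53 RPKM in subclone 1 and 1.34 RPKM in subclone 2. The intervals of its ratios included 1. ADAM20, ADAM21 and ADAM21P1, which are close copies of each other, and ADAM32 had at most 2 reads in a library. How reads shared by such copies were counted is not given in the sources used here.

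The secreted ADAMTS proteases were far lower than the membrane sheddases. Their summed level over 12 genes was 9.53 RPKM in the parent, 9.02 RPKM in subclone 1 and 8.60 RPKM in subclone 2, against 326, 328 and 388 RPKM over the 8 catalytic membrane ADAMs. Of the proteases that cut cartilage oligomeric matrix protein, ADAMTS12 measured 3.73 RPKM in the parent (83 reads), 2.14 RPKM in subclone 1 (49 reads) and 2.99 RPKM in subclone 2 (70 reads). Subclone 1 was 1.74-fold below the parent (1.21 to 2.53), which did not meet the 2-fold call, and the ratio of subclone 2 to subclone 1 was 1.39 (0.954 to 2.05), which did not separate the subclones. ADAMTS7, the other member of this pair, had 1.17, 0.666 and 1.22 RPKM in the parent, subclone 1 and subclone 2, on 29, 17 and 32 reads. The intervals of all its ratios included 1, and pseudogene copies of ADAMTS7 may share its reads.

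ADAMTS proteases that cut the proteoglycans versican and aggrecan were represented by ADAMTS15 and ADAMTS1. ADAMTS15 measured 1.69 RPKM in the parent (43 reads), 2.67 RPKM in subclone 1 (70 reads) and 1.94 RPKM in subclone 2 (52 reads). Subclone 1 exceeded the parent with a ratio of 1.58 (1.07 to 2.37), short of the 2-fold call, and the ratio of subclone 2 to subclone 1 was 0.725 (0.496 to 1.05), which did not separate the subclones. In subclone 2 the ratio to the parent was 1.15 (0.752 to 1.76).

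ADAMTS1, which also inhibits the formation of blood vessels, went the other way. Its level was 1.05 RPKM in the parent (22 reads), 0.464 RPKM in subclone 1 (10 reads) and 0.227 RPKM in subclone 2 (5 reads). The parent was the highest, and the ratio between the subclones was 0.488 (0.131 to 1.57), too uncertain to order them. Relative to the parent, ADAMTS1 was 2.26-fold lower in subclone 1 (1.03 to 5.34) and 4.63-fold lower in subclone 2 (1.71 to 15.7).

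ADAMTS4, the best known aggrecanase besides ADAMTS5, had 3, 5 and 3 reads in the parent, subclone 1 and subclone 2, and ADAMTS5 was not listed. ADAMTS13, the protease that trims von Willebrand factor and that hepatic stellate cells make in normal liver, had 3, 8 and 7 reads in the same order, and its ratios to the parent had intervals that included 1. ADAMTS4 and ADAMTS13 were likewise named for their roles after their values were seen. ADAMTS16, the remaining ADAMTS gene above a mean of 1 RPKM, was at 1.12, 1.66 and 1.06 RPKM in the parent, subclone 1 and subclone 2, and no difference was detectable at this depth.

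ADAMTS-like proteins bind fibrillin microfibrils and other matrix components without cutting them. ADAMTSL2, in which mutations cause geleophysic dysplasia, had 16 reads in the parent, or 0.873 RPKM (0.499 to 1.42), 1 read in subclone 1 (0.0531 RPKM) and 3 reads in subclone 2 (0.156 RPKM). The parent stood above both subclones, whose intervals overlapped each other. The parent was 16.4 times subclone 1, with an interval from 2.55 to 689 that reflects the 1 read, and 5.61 times subclone 2 (1.61 to 30.1). ADAMTSL5 held 2.18 RPKM in the parent, 2.04 RPKM in subclone 1 and 1.84 RPKM in subclone 2, on 28, 27 and 25 reads, and the intervals of its ratios included 1.

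**Figure D2:**
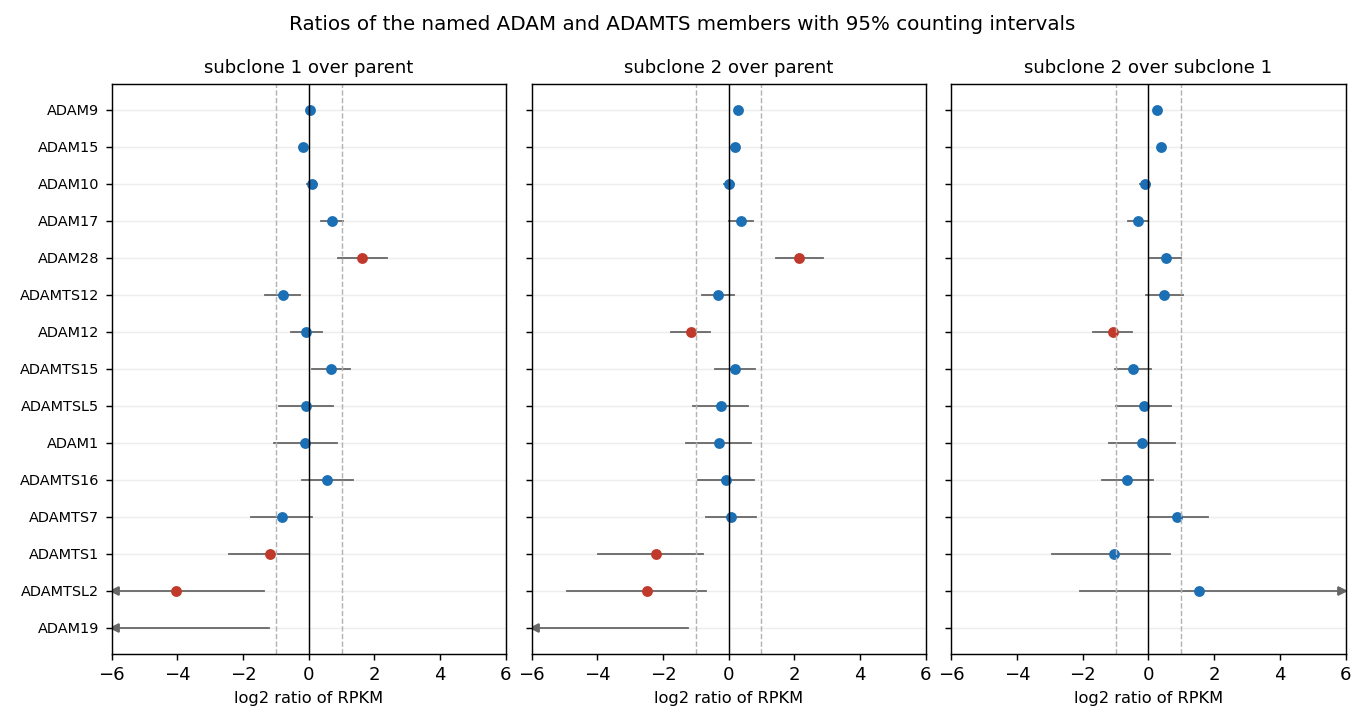
Ratios of RPKM between libraries on a log2 scale for the 15 members named by rule, in 3 panels for each subclone against the parent and for subclone 2 against subclone 1. Bars are 95% intervals of counting error, arrows mark bars that leave the panel, red points met a call, dashed lines mark 2-fold, and ADAM19 has bars without points because its level was 0 in both subclones. ADAM28 lies to the right in both comparisons with the parent, and ADAMTS1, ADAMTSL2 and ADAM19 lie to the left.

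Against the whole transcriptome the family did not move as a body. In subclone 1, 1 of the 12 members with a mean of at least 1 RPKM exceeded the parent at least 2-fold (ADAM28), beside 4.9% of all 11370 genes, and 0 lay at least 2-fold below it, beside 1.82%. In subclone 2, 1 member was higher (ADAM28), beside 5.33% of all genes, and 1 was lower (ADAM12), beside 2.16%. In subclone 2 over subclone 1, 0 members were higher, beside 1.42%, and 1 was lower (ADAM12), beside 1.39%. With 12 members, 1 call is 8.33% of them, so these counts are too small to set the family apart from the background.

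The median log2 ratio of the 12 members was -0.02 in subclone 1 and 0.03 in subclone 2 relative to the parent, and -0.12 in subclone 2 relative to subclone 1. Over all 11370 genes the medians were 0.00, 0.04 and 0.03. In subclone 1 over the parent, 3 members had an interval above 1 and 2 below it. Of the 11125 genes with recovered reads, 2229 lay above and 2118 below in the same comparison. In subclone 2 over the parent the counts were 4 and 1 of the 12 members and 2545 and 1990 of all genes. In subclone 2 over subclone 1 they were 3 and 2 of the 12 members and 1289 and 945 of all genes.

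Among the 19 members with a mean under 1 RPKM, a call also needed a counting interval that left out 1. In both comparisons with the parent 3 of the 19 were lower (ADAMTS1, ADAMTSL2 and ADAM19) and 0 were higher. Of the 4367 genes under 1 RPKM with recovered reads, 1.26% were lower by this rule in subclone 1 and 1.72% in subclone 2. The share of these genes that were higher by this rule is not given here, so the 0 higher members have no background beside them. Such a call needs reads in the parent to begin with, and 10 members of the family had at most 3 reads in every library. The 16 members of this class that were not named by rule reached at most 14 reads in a library.

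A further 16 protein-coding genes of the family were not listed in any library, and a count of 0 allows up to 3 reads. They were ADAM2, ADAM7, ADAM18, ADAM29 and ADAM30, which are known from the germline, the neuronal ADAM23, ADAM33, ADAMDEC1 and the secreted ADAMTS3, ADAMTS5, ADAMTS8, ADAMTS9, ADAMTS14, ADAMTS18, ADAMTS19 and ADAMTSL1.

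The genes that control these proteases were then read from a list of 24 inhibitors, activators, carriers and clearance receptors, of which 22 had a mean of at least 1 RPKM. In subclone 1, 2 of them rose over the parent (TSPAN33 and LRP1), beside 4.9% of all genes, and 1 fell (TIMP3), beside 1.82%. In subclone 2 the same 2 rose, beside 5.33%, and 0 fell, beside 2.16%, and between the subclones 0 were called in either direction. The median log2 ratio of the list was 0.20 in subclone 1 and 0.14 in subclone 2, against 0.00 and 0.04 over all genes. This list and the substrate lists below were chosen with earlier results of these data known. Their counts are therefore no test against the shares of all genes.

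TIMP3, a matrix-bound inhibitor of ADAM17, ADAM10 and the aggrecanases, stood at 62.3 RPKM in the parent, 30.8 RPKM in subclone 1 and 42.8 RPKM in subclone 2. The 3 libraries were well separated, with the parent highest. Relative to the parent, TIMP3 was 2.02-fold lower in subclone 1 (1.85 to 2.21), and in subclone 2 the parental level was 1.46 times that of the subclone (1.35 to 1.57). The call of TIMP3 in subclone 1 lay at the threshold, with a log2 ratio of -1.01. TIMP1, which inhibits ADAM10, was at 223, 213 and 220 RPKM in the parent, subclone 1 and subclone 2, and TIMP2 at 101, 164 and 143 RPKM. TIMP2 was thus 1.62 times the parent in subclone 1 (1.49 to 1.77), opposite in direction to TIMP3 and not called. RECK, a membrane-anchored inhibitor of ADAM10, measured 2.42, 3.63 and 3.30 RPKM.

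The tetraspanins of the TspanC8 group carry ADAM10 to the cell surface and steer it to different substrates. TSPAN33 rose from 10.1 RPKM in the parent to 28.1 RPKM in subclone 1 and 21.6 RPKM in subclone 2, 2.77-fold (1.85 to 4.26) and 2.13-fold (1.40 to 3.32). TSPAN15, which directs ADAM10 to cadherins, was at 23.9, 35.1 and 43.7 RPKM, with ratios to the parent of 1.47 (1.21 to 1.78) and 1.83 (1.53 to 2.19). TSPAN14 was at 24.5, 25.8 and 26.7 RPKM, and its ratios did not differ from 1 beyond counting error. The others of the group did not rise alike. TSPAN5 was at 11.2, 8.60 and 10.6 RPKM, with a ratio to the parent of 0.769 (0.609 to 0.969) in subclone 1. TSPAN17 was at 12.1, 10.2 and 11.5 RPKM, with intervals that included 1, and TSPAN10 had 3, 10 and 1 reads. TSPAN5, TSPAN17 and TSPAN10 were named after their values were seen, to complete the group.

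LRP1, an endocytic receptor that clears ADAMTS proteases and TIMP3 from the cell surface, rose from 16.2 RPKM in the parent to 35.4 RPKM in subclone 1 and 39.4 RPKM in subclone 2, 2.18-fold (2.03 to 2.35) and 2.43-fold (2.26 to 2.61). RHBDF1 and RHBDF2, the inactive rhomboids that bring ADAM17 to the surface, were at 2.96, 3.86 and 3.35 RPKM and at 9.24, 11.9 and 9.48 RPKM. FURIN, the activating convertase, measured 13.1, 13.4 and 13.8 RPKM, and no difference was detectable.

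**Figure D3:**
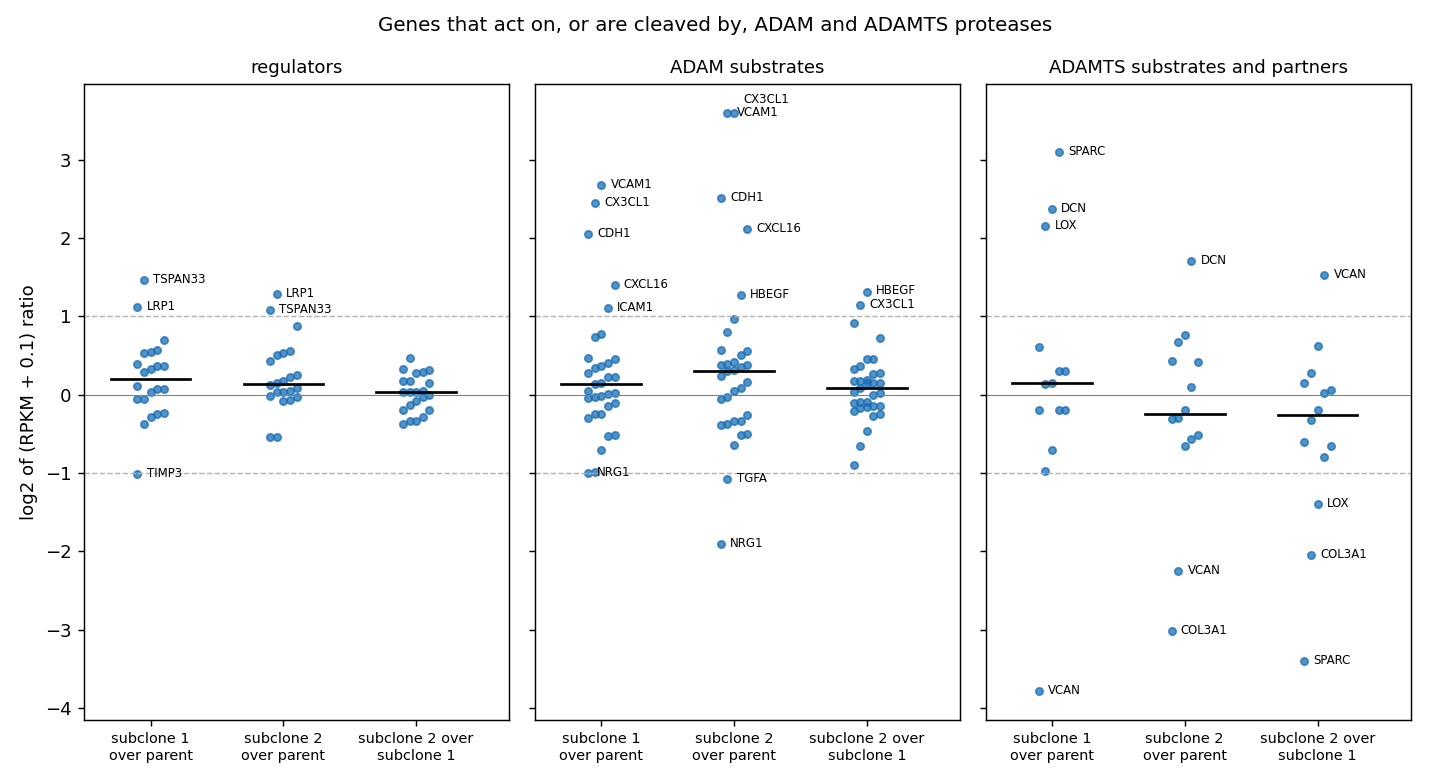
log2 ratios of (RPKM + 0.1) for regulators, ADAM substrates, and ADAMTS substrates and partners with a mean of at least 1 RPKM, in each of the 3 comparisons. Each point is a gene, short black lines are medians, dashed lines mark 2-fold, and genes at or past 2-fold are labelled. VCAN is the lowest point in subclone 1 over the parent, at -3.78.

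Among 40 proteins known to be shed by ADAMs, 33 had an mRNA with a mean of at least 1 RPKM. In subclone 1, 5 exceeded the parent at least 2-fold (CDH1, CX3CL1, CXCL16, VCAM1 and ICAM1) and 1 was lower (NRG1), where 4.9% and 1.82% of all genes were so called. In subclone 2, 5 were higher (HBEGF, CDH1, CX3CL1, CXCL16 and VCAM1) and 2 were lower (TGFA and NRG1), beside 5.33% and 2.16% of all genes. Between the subclones 2 were higher in subclone 2 (HBEGF and CX3CL1) and 0 lower, beside 1.42% and 1.39%. Both reached a mean of 1 RPKM only through subclone 2, where they had 2.40 and 2.75 RPKM. L1CAM, with 12 reads in subclone 1 and 1 in subclone 2, lay under that mean and was not counted. These counts between the subclones therefore depend on the filter. L1CAM was named after its values were seen. The median log2 ratio was 0.13 in subclone 1 and 0.30 in subclone 2 over the parent, and the medians of all genes were 0.00 and 0.04. Of the endothelial markers, all 4 were listed, with summed levels of 4.74, 11.8 and 7.56 RPKM in the parent, subclone 1 and subclone 2. PECAM1 (CD31) made up most of the sum at 3.33, 9.81 and 4.46 RPKM and KDR had 1.36, 1.94 and 3.08 RPKM, while CDH5 and VWF were at most 0.0525 RPKM. The part of endothelial cells in the levels of VCAM1, ICAM1 and CX3CL1 was not tested.

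CDH1, the epithelial adhesion protein E-cadherin, which ADAM10 sheds, rose from 2.08 RPKM in the parent to 8.97 RPKM in subclone 1 and 12.3 RPKM in subclone 2, 4.31-fold (3.10 to 6.09) and 5.91-fold (4.30 to 8.29). CXCL16, a membrane-bound chemokine cut by ADAM10, rose from 9.31 RPKM to 24.8 RPKM and 40.9 RPKM, 2.66-fold (2.11 to 3.39) and 4.39-fold (3.52 to 5.52). CX3CL1, the other chemokine with a membrane anchor, was read 2 times in the parent, 18 times in subclone 1 and 43 times in subclone 2. Its ratio to the parent was 8.76 (2.10 to 77.9) in subclone 1 and 20.4 (5.32 to 174) in subclone 2. ICAM1, a ligand of leukocyte integrins, stood at 39.0, 84.5 and 75.8 RPKM and met the call in subclone 1 alone, at 2.17-fold (1.96 to 2.39), against 1.94-fold (1.76 to 2.15) in subclone 2.

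Among the growth factor precursors, NRG1 and TGFA were lower and HBEGF was higher in subclone 2 relative to the parent. NRG1 (neuregulin), a ligand of ERBB receptors, fell from 14.8 RPKM in the parent to 7.34 RPKM in subclone 1 and 3.88 RPKM in subclone 2, 2.02-fold (1.59 to 2.56) and 3.82-fold (2.85 to 5.18), the former at the threshold of the call. TGFA, a ligand of the epidermal growth factor receptor, was at 2.72, 1.32 and 1.24 RPKM, and its level in subclone 2 was 2.19-fold below the parent (1.33 to 3.68). In subclone 1 it was 2.05-fold below the parent (1.26 to 3.43), and its log2 ratio of -0.99 just missed the call. The ratio of TGFA between the subclones was 0.938 (0.520 to 1.69), which did not separate them. HBEGF, another ligand of that receptor, had 10 reads in each of parent and subclone 1 against 27 reads in subclone 2, and exceeded the parent 2.57-fold in subclone 2 (1.20 to 5.94).

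**Figure D4:**
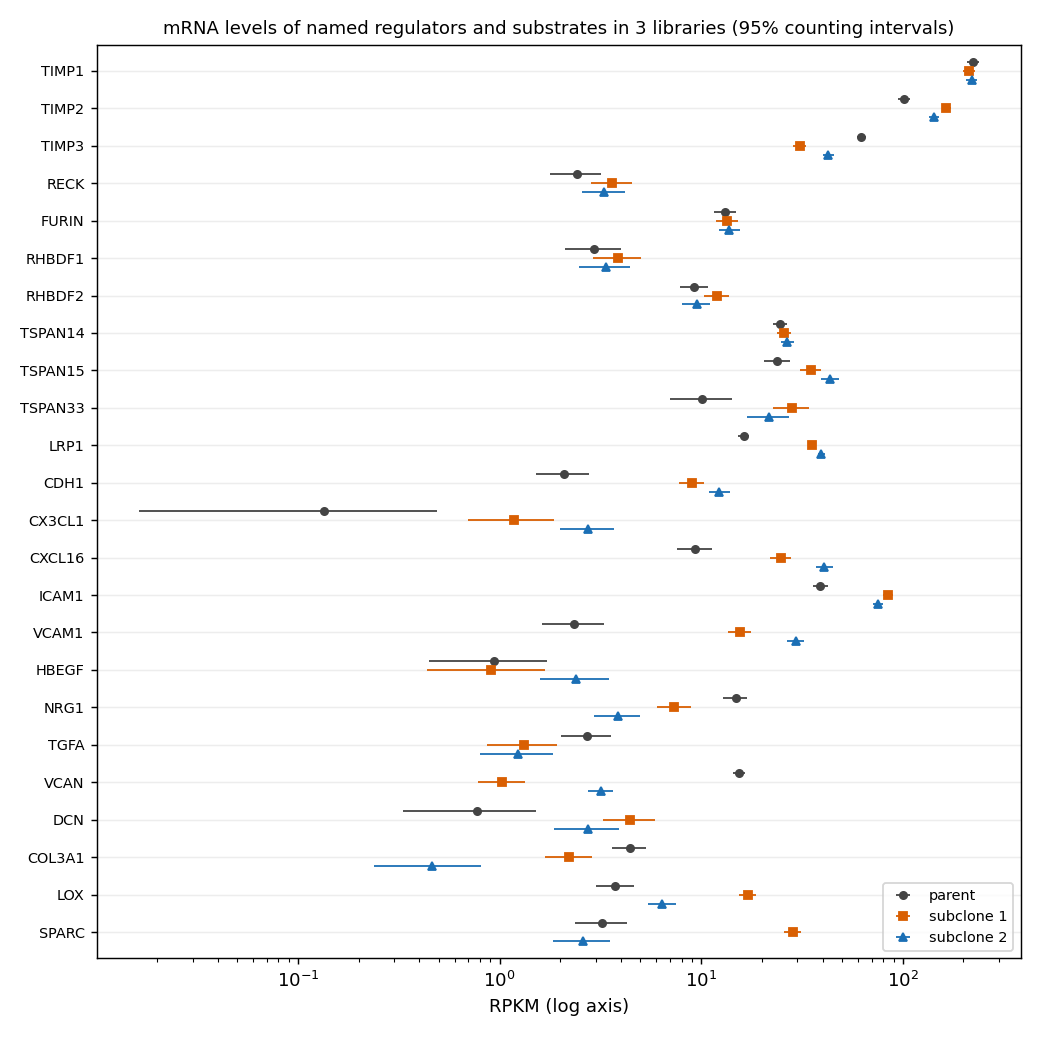
mRNA levels of the regulators and substrates named by rule in RPKM on a log axis, with symbols and bars as in the plot of member levels. The parent lies below both subclones for CDH1, CX3CL1, CXCL16 and VCAM1 and above both for NRG1, TGFA and VCAN.

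Of 27 matrix substrates and partners of the ADAMTS proteases, 14 had a mean of at least 1 RPKM. In subclone 1, 3 rose over the parent (DCN, LOX and SPARC) and 1 fell (VCAN), against shares of 4.9% and 1.82% over all genes. SPARC here and VCAM1 among the ADAM substrates had been picked out by the study for higher mRNA in its monoclones. In subclone 2, 1 rose (DCN) and 2 fell (VCAN and COL3A1), against 5.33% and 2.16%. Between the subclones, 1 was higher in subclone 2 (VCAN) and 3 were lower (COL3A1, LOX and SPARC), against 1.42% and 1.39%. The list's median log2 ratio was 0.14 in subclone 1 and -0.24 in subclone 2 over the parent, against 0.00 and 0.04 over all genes.

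VCAN (versican), the large proteoglycan cut by ADAMTS1 and ADAMTS15, measured 15.5 RPKM in the parent (862 reads), 1.03 RPKM in subclone 1 (59 reads) and 3.17 RPKM in subclone 2 (186 reads). All 3 libraries were separated, with subclone 1 the lowest. Relative to the parent, VCAN was 15.0-fold lower in subclone 1 (11.5 to 19.9) and 4.88-fold lower in subclone 2 (4.16 to 5.75). Subclone 2 exceeded subclone 1 by a factor of 3.08 (2.28 to 4.20).

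DCN (decorin), a small proteoglycan, rose from 0.773 RPKM in the parent to 4.42 RPKM in subclone 1 and 2.75 RPKM in subclone 2, on 8, 47 and 30 reads. Its ratio to the parent was 5.72 (2.68 to 14.0) in subclone 1 and 3.56 (1.60 to 8.99) in subclone 2. COL3A1, a fibrillar procollagen trimmed by ADAMTS2 and its relatives, was at 4.42, 2.21 and 0.463 RPKM, and subclone 2 was 9.56-fold below the parent (5.26 to 19.1). ADAMTS2 itself had 1 read, in subclone 1. LOX, the enzyme that cross-links collagen, stood at 3.74, 17.0 and 6.42 RPKM and subclone 1 exceeded the parent 4.54-fold (3.60 to 5.80).

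Of 7 fibroblast markers 6 were listed. Their summed level was 15.7 RPKM in the parent, 31.2 RPKM in subclone 1 and 24.3 RPKM in subclone 2. DCN and COL3A1 belong to that list as well, and LUM (lumican) supplied most of the sum. Among its defining markers PDGFRB was not listed in any library, COL1A1 was at most 0.403 RPKM and COL1A2 at most 0.0412 RPKM. The part of such cells in the levels of the matrix genes was not tested.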

How the data were processed

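Libraries were prepared with the Illumina TruSeq kit from Trizol-purified total RNA of 3 cell lines, 1 library each. RPKM per gene, with Entrez number and symbol, is the unit in which the authors deposited the data, and only genes above 0 are listed. The submitters' processing notes name the hg19 build. The aligner, the counting tool, the annotation, and how strand and shared reads were treated are not given in the sources used here. Members and gene lists were chosen with earlier results of these data known.

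Whole reads were recovered from the RPKM steps by finding, for each gene, the smallest length that gave whole numbers in all 3 libraries and fitted its GENCODE transcripts. This succeeded for 97.8% of the 11370 genes with a mean of at least 1 RPKM and for all 31 members, and the genes with reads held 95.7% to 95.8% of each total. Where reads share a divisor they are understated, which widens intervals. ADAM28 and ADAMTS10, with fitted lengths of 1610 and 605 bases, may be such cases. Reads served for 95% intervals and for the limit of 3 reads. Reads without molecular identifiers are not independent molecules.

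log2 ratios used a pseudocount of 0.1. Members with a mean of at least 1 RPKM were named, as were lower members that reached 2-fold with an interval leaving out 1, or that were listed in 1 library only with at least 4 reads. In each pathway list up to 8 genes with the largest changes past 2-fold were named, besides TIMP1, TIMP2, TIMP3, RECK, RHBDF1, RHBDF2, TSPAN14, TSPAN15, FURIN and VCAN. In the pathway lists, 1 gene is not reported here and was taken out of its list after the values were seen. No replicate existed, so no test was run. The steps were tested on simulated data. The alternatives were other pseudocounts, filters, thresholds and scalings. RefSeq sequences came from GRCh38.p14, which differs from the build of the files, and no gene coordinates were taken across builds. Python 3.11.15, numpy 2.4.6, pandas 2.3.3, scipy 1.17.1 and matplotlib 3.10.9 were used.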

Additional observations from a re-analysis of the deposited data

Results flagged for a closer look

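HBEGF, a substrate of the ADAM proteases, differed between the subclones in its ratio to the parent. The log2 ratio was -0.03 in subclone 1 and 1.27 in subclone 2, and that of subclone 2 over subclone 1 was 1.31, on 10 and 27 reads. The mean of HBEGF reached 1 RPKM only through subclone 2. SPARC, a collagen-binding matrix protein on the list of ADAMTS substrates and partners, had a log2 ratio to the parent of 3.10 in subclone 1 and -0.30 in subclone 2, and that of subclone 2 over subclone 1 was -3.40. With 1 library per line these differences between the subclones were not tested.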

How the results depend on the processing

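The 2-fold calls of members depended mainly on the filter on low levels. With no filter, 4 members lay above and 4 below the parent in subclone 1, 2 above and 4 below it in subclone 2, and 2 were higher and 2 lower in subclone 2 relative to subclone 1. The members that joined ADAM28 above the parent in subclone 1 were ADAMTS10, ADAMTS2 and ADAM8, on 1, 1 and 5 reads there. Those below the parent in subclone 1 included ADAM21P1, on 1 read in the parent. With a mean of at least 5 RPKM, which leaves ADAM12 out, 0 members were lower in subclone 2 against either other library. At 1.5-fold, 3 members lay above and 2 below the parent in subclone 1, and 1 was higher and 2 lower in subclone 2 relative to subclone 1. The shares of all genes called with no filter, with a mean of at least 5 RPKM or at 1.5-fold were not counted. A pseudocount of 1 left 0 members lower in subclone 2 against the parent and 0 against subclone 1. Division by ACTB or by GAPDH left 0 lower in subclone 2 against subclone 1. These scalings moved all genes: under ACTB the median log2 ratio was -0.13 in subclone 1 over the parent and 0.16 in subclone 2 over subclone 1, and under GAPDH it was 0.15 in the latter. The share of higher genes among those called went from 72.9% to 57.8% in the first comparison under ACTB, and in the last from 50.5% to 63.9% under ACTB and 62.6% under GAPDH. Of 308 ratios of named members under the other pseudocounts and scalings, 298 stayed within their counting interval and 0 changed sign past a call. For members with few reads this interval is wide, so staying within it is a weak criterion. A ratio can also stay within it and lose its call. With a pseudocount of 1 the log2 ratio of ADAM12 in subclone 2 over the parent went in this way from -1.09 to -0.75. With a pseudocount of 1 the log2 ratio of ADAM19 to the parent became -0.42 in both subclones. That of ADAMTSL2 became -0.83 in subclone 1 and -0.70 in subclone 2, and that of ADAMTS1 became -0.48 and -0.74. At this setting none of these low members was 2-fold below the parent. No paired analysis was possible because there is 1 library per line, which also means that no library could be left out. Ratios of members with fewer than 20 reads rest on wide intervals, and depth limits what can be said of the 19 members under 1 RPKM.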
